A study of Mus musculus with 2 samples.

Results

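Rab genes encode small GTPases that give membranes inside the cell their identity. A Rab protein carries a lipid anchor, is loaded with GTP by an exchange factor (GEF) on its target membrane, and there recruits effectors such as tethers and motor proteins. A GTPase-activating protein (GAP) switches it off, and a GDP dissociation inhibitor takes it back to the cytosol. In myeloid cells Rab proteins are known for steering phagosomes towards lysosomes and for the release of granules.

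The members were the protein-coding genes of the deposited count table named Rab with a number, and at most a letter and a digit after it. Of the 54751 genes in the table, 59 matched, and 47 of them had at least 26 counts over both libraries and are described as expressed. The data were RNA-seq of cultured MDSCs, that is myeloid-derived suppressor cells, which restrain T cells, grown from wild-type mouse bone marrow. Vehicle-treated cells made up the control, and the other group received mrWNT2, named in the labels without further description. Cells were treated on day 0 and day 3 and taken on day 6, with 1 library a group. The series' title places the study in colorectal cancer.

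Depth was similar, at 13474453 counts for control and 12621110 for mrWNT2. With 1 library a group no test was possible, and no difference below has a replicate check. Each ratio is mrWNT2 over control after TMM scaling, which adjusts the library totals, and its interval is an exact 95% (Clopper-Pearson) interval from the counts of the gene. The intervals and the limits for 0 counts cover counting error only, and compare these libraries, not the conditions. Defining myeloid genes were present in both: Itgam, which encodes CD11b, stood at 495 CPM (counts scaled to 1000000 a library) in control and 477 in mrWNT2, and S100a9 at 25349 and 22000. Of 11 identity genes, 1 was lower and 1 higher by 1.5-fold or more: the granulocyte marker Ly6g, at 173 and 86.3 CPM, and Csf1r, the receptor of the monocyte and macrophage growth factor, at 146 and 346 CPM.

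The Rab genes differed little between the libraries. Of the 47 expressed, 44 lay within 1.5-fold, 1 was at least 1.5-fold higher in mrWNT2 (Rab34) and 2 were at least 1.5-fold lower (Rab33b and Rab15). Among all 11254 protein-coding genes with at least 26 counts, 7.28% were higher in mrWNT2 by 1.5-fold or more and 5.15% were lower by as much, against 2.13% and 4.26% of the Rab genes. The interval lay above a ratio of 1 for 7 Rab genes (14.9%) and below it for 11 (23.4%), beside 22.5% and 19.2% of the protein-coding genes. The median log2 ratio of the Rab genes was -0.04, beside 0.02 for all the protein-coding genes. Rab genes had more counts than most, with a median of 1454 over both libraries against 740, and a gene with more counts has a narrower interval. The shares past 1.5-fold also depend on counts. With at least 200 counts, 0 of 35 Rab genes were higher and 2 lower, beside 374 and 242 of 8769 protein-coding genes. With at least 1000 counts, 0 of 24 were higher and 1 lower, beside 152 and 100 of 4740. Of those 24, 18 had a ratio below 1 and 6 above, beside 2426 and 2314 of the 4740.

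**Figure D1:**
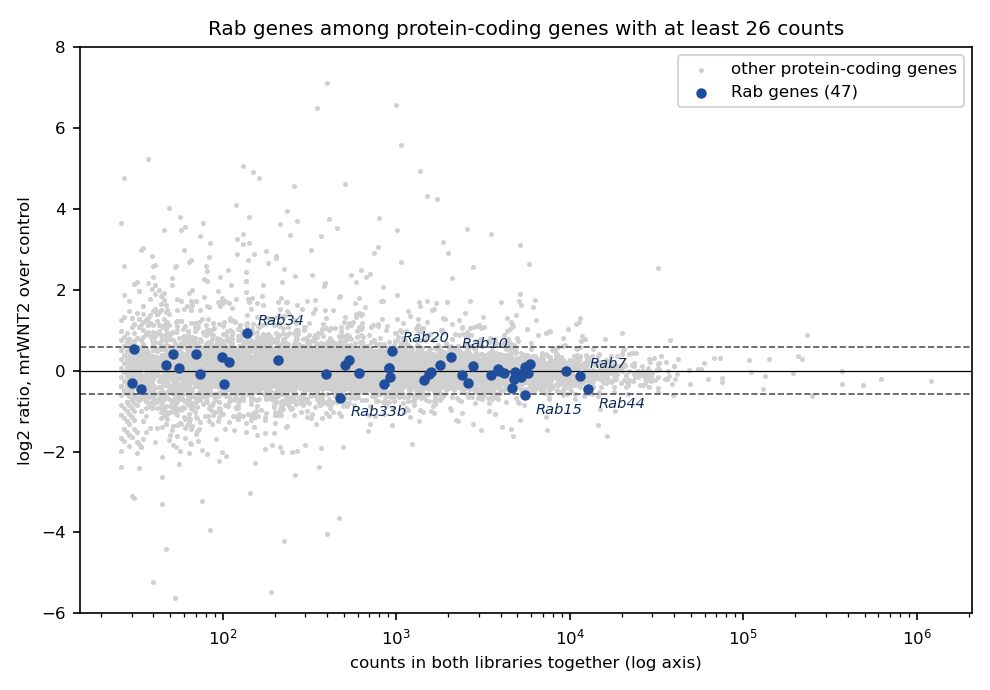
Log2 ratio of mrWNT2 over control (vertical axis) against the counts of both libraries together (horizontal, log axis) for the 47 Rab genes (blue) and 11203 other protein-coding genes (grey), with 4 genes at 0 counts in 1 library not drawn. Dashed lines mark 1.5-fold, and among the Rab genes only Rab34 lies above the upper line and only Rab33b and Rab15 below the lower one.

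Upstream sequences are shown for the 3 genes past 1.5-fold and for Rab20, the next highest with an interval above 1, because they are the members that stood farthest apart. Each run is the 250 bases before the RefSeq start of the gene (GRCm38.p6), written along the gene, with matches to the motifs below in capitals. They lie at chr11:78188177-78188426, plus strand for Rab34, chr8:11478641-11478890, minus strand for Rab20, chr3:51483716-51483965, plus strand for Rab33b and chr12:76822525-76822774, minus strand for Rab15. The RefSeq start used for Rab15 is 384 bases from the 5′ end of the gene in the deposited table, and for the other three it is at most 70 bases away.
Rab34: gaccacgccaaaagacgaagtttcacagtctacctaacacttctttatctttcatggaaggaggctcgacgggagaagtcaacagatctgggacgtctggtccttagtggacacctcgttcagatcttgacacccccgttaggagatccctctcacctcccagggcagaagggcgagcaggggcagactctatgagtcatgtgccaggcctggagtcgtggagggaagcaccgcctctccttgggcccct
Rab20: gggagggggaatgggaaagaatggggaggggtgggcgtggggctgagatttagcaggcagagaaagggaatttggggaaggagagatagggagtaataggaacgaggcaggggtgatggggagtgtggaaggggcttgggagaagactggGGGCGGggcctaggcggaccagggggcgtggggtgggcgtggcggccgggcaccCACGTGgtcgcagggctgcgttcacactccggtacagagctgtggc
Rab33b: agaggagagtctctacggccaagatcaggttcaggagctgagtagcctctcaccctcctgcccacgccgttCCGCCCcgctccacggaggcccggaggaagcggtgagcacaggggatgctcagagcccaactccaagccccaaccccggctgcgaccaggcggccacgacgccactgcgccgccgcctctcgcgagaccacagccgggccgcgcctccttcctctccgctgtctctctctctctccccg
Rab15: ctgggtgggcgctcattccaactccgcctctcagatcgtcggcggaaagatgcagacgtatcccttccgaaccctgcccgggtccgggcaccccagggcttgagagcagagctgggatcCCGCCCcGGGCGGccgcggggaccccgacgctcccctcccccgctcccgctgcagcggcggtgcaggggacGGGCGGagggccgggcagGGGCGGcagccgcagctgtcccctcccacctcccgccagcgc

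The motifs were searched on both strands in the same 250-base window of the 39 expressed Rab genes that the RefSeq table holds, and of 8984 protein-coding genes with at least 26 counts. The TCF/LEF motif ATCAAAG, that of the transcription factors at the end of canonical WNT signalling, was in 0 of the 39 Rab promoters and in 2.25% of all. The NF-kB motif was in 2 (5.13%, against 8.6% of all), those of Rab11a and Rab28. The PU.1 form of the ETS motif, GAGGAAGT, was in 2 (5.13% against 2.80%), Rab32 and Rab2b. The E-box CACGTG was in 4 (10.3% against 8.54%), namely Rab20, Rab21, Rab23 and Rab5a, and TGACGTCA, the cyclic AMP response element, in 1 (2.56% against 2.79%), Rab5a. The GC box GGGCGG, which can share bases with the NF-kB motif, was in 27 (69.2% against 59.9%). In the sequences above it is there once for Rab20 and Rab33b and in 4 places for Rab15, while the Rab34 window holds none of the 6 motifs. The median GC content of the windows was 62% for the Rab genes and 59.6% for all. A match is a string of letters and does not show that a factor binds.

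Levels within each library were compared as deposited FPKM (fragments scaled by gene length and by library size), since counts alone rise with gene length. Rab7, which takes late endosomes and phagosomes to lysosomes, was the most abundant in control at 177 FPKM and second in mrWNT2 at 158. Rab5c, an early endosome Rab, came to 169 and 164. Below these came Rab44, a large Rab protein with calcium-binding EF hands, at 113 and 80.4, and by Rab1b, which acts between the endoplasmic reticulum (ER) and the Golgi, at 89.4 and 84.5, with Rab44 the higher of the pair in control and Rab1b in mrWNT2. Next were Rab32, of lysosome-related organelles, at 65.5 and 63.3, and Rab1a, the close relative of Rab1b, at 57.2 and 62.2. In control Rab6a, at 57.7 FPKM, stood just above Rab1a, and in mrWNT2 it was lower at 50.6. The 6 most abundant members of each library, the first 5 being the same and the last Rab6a in control and Rab1a in mrWNT2, took 47.3% of the summed Rab FPKM in control and 46.8% in mrWNT2. The order was nearly the same in both libraries, with a rank correlation of 0.991 across the 47 genes, which share libraries and gene lengths. Rab15 moved the most among the abundant genes, from the 8th place of the 47 to the 14th. The median Rab gene stood at 15.3 FPKM in control and 15.2 in mrWNT2, above the 6.30 and 6.29 of all the protein-coding genes. The lowest was Rab2b at 0.24 and 0.34 FPKM.

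**Figure D2:**
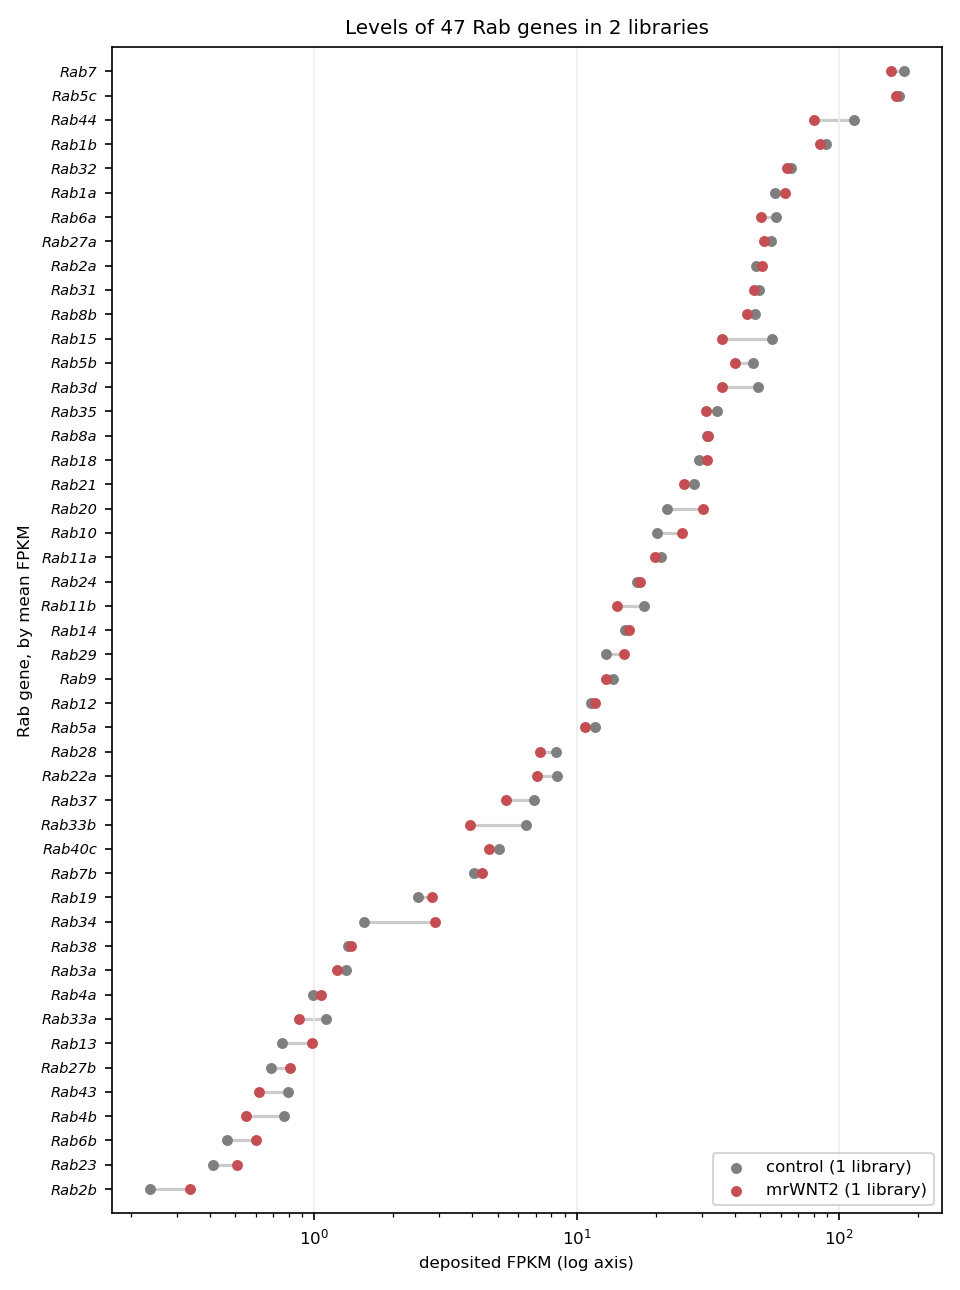
Deposited FPKM (log axis) of the 47 expressed Rab genes in the control (grey) and mrWNT2 (red) libraries, ordered by their mean. Rab7 and Rab5c lead in both libraries, and the widest gaps among the abundant genes are those of Rab44, Rab15 and Rab3d.

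Rab proteins of the secretory route from ER to Golgi had 12 expressed genes of 14, and these held both the highest and the lowest ratio of the family. Rab34 (ENSMUSG00000002059, chromosome 11, 78188430 to 78192193, GRCm38), a Golgi-associated Rab involved in the positioning of lysosomes and in cilium formation, had 49 counts in the control library and 89 in the treated one. Its FPKM was 1.55 in control and 2.90 in mrWNT2, and it ranked 36th and 35th of the 47 genes. The ratio of its TMM-scaled counts was 1.91 (1.33 to 2.77). Rab33b (ENSMUSG00000027739, chromosome 3, 51483920 to 51496232), a Golgi Rab that binds the autophagy protein ATG16L1, had 299 and 179 counts, or 6.39 and 3.93 FPKM. It was 1.59-fold lower in mrWNT2 (1.32 to 1.92). Its relative Rab33a had 17 and 13 counts, and the interval of its ratio of 0.80 ran from 0.36 to 1.76.

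The abundant members of this route were close to a ratio of 1. Rab1a had 2873 and 3041 counts (1.11-fold higher, 1.06 to 1.17), and Rab1b 2169 and 1996 (ratio 0.97, 0.91 to 1.03). Rab2a, which acts on the ER-Golgi intermediate and on lysosome fusion, had 1361 and 1399 counts, with an interval of 1.003 to 1.17. That lower bound touches 1, and the interval included 1 with the DESeq2 size factors, which shift every ratio of mrWNT2 over control downwards. Rab6a, the Rab of the trans-Golgi, had 2841 and 2427 counts and was 1.11-fold lower (1.05 to 1.18). Rab18, found on ER and lipid droplets, had 872 and 908 counts and an interval that included 1 (0.997 to 1.2). Rab43, Rab19, Rab6b and Rab2b had between 13 and 58 counts in each library, and all their intervals included 1.

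At the entry of the endocytic route 7 of 8 genes were expressed, and Rab20 was the one above a ratio of 1. Rab20 (ENSMUSG00000031504, chromosome 8, 11453518 to 11478710), a Rab of maturing phagosomes in macrophages, had 407 counts in control and 544 in mrWNT2. Its FPKM was 22.1 and 30.4, and by TMM-scaled counts it was 1.41-fold higher (1.23 to 1.60). A lncRNA gene on the other strand, E230013L22Rik, with 42 and 55 counts, shares 25.6% of the exon bases of Rab20. The 3 genes of the RAB5 proteins, which define early endosomes, differed in level: Rab5c had 4900 and 4640 counts, Rab5b 2613 and 2170, and Rab5a 818 and 731. Rab5c was level (ratio 0.996, 0.96 to 1.04), and was on the other side of 1 with library totals. Rab5b was 1.15-fold lower (1.08 to 1.21), and the interval of Rab5a included 1 (0.85 to 1.04). Rab22a, an early endosome Rab, had 801 and 653 counts and was 1.17-fold lower (1.05 to 1.30). Its close relative Rab31 had 2497 and 2329 counts, with a ratio of 0.98 (0.93 to 1.04). Rab21, which follows integrins into endosomes, had 1869 and 1660 counts and was 1.07-fold lower (1.002 to 1.14), and its interval included 1 when library totals replaced TMM.

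Among the Rab genes of recycling back to the cell surface, 7 of 8 were expressed. Of those, 5 had a ratio below 1, as had 5198 of all 11254 protein-coding genes, and 2 had an interval below 1. Rab15 (ENSMUSG00000021062, chromosome 12, 76797960 to 76822908), known from sorting and recycling endosomes, had 3398 counts in control and 2123 in mrWNT2. It stood at 55.7 and 35.8 FPKM. By TMM-scaled counts it was 1.52-fold lower (1.44 to 1.61), which became 1.499-fold, just short of 1.5, when library totals were used. Rab11b, one of the RAB11 pair of the recycling endosome, had 1458 and 1122 counts and was 1.24-fold lower (1.14 to 1.34). Rab11a had 826 and 763 counts, with a ratio of 0.97 (0.88 to 1.07). Rab14, which links the Golgi to endosomes, had 2740 and 2770 counts and a ratio of 1.06 (1.01 to 1.12), and Rab35, of the plasma membrane, 1274 and 1127 (0.93, 0.86 to 1.01). The fast recycling pair Rab4a and Rab4b had at most 24 counts in each library, and both intervals included 1.

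The late endosome, lysosome and autophagy group had 5 expressed genes of 8, with ratios from 0.91 to 1.10. Rab7 (ENSMUSG00000079477, chromosome 6, 87999106 to 88045270) had 6106 and 5310 counts and was 1.09-fold lower (1.05 to 1.13). Rab7b, a distant relative known for limiting TLR4 signalling, had 248 and 260 counts and a ratio of 1.10 (0.92 to 1.32). Rab9, of transport from late endosomes to the Golgi, had 319 and 290 counts, Rab12 456 and 457, and Rab24, tied to autophagy, 453 in each, and their intervals included 1. Exons of Prelid1 on the opposite strand, a gene with 3722 and 3824 counts, cover 62.4% of those of Rab24, so the Rab24 counts are uncertain. Rab29, Rab32 and Rab38, of lysosome-related organelles, were all expressed. Rab29, which binds the kinase LRRK2, had 251 and 287 counts (1.2-fold higher, 1.01 to 1.43, an interval that included 1 with the DESeq2 size factors). Rab32 had 2024 and 1905 counts (ratio 0.99, 0.93 to 1.05), with a ratio above 1 when library totals were used, and Rab38 had 28 in each library.

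Exocytosis and regulated secretion had 10 expressed genes of 13. Of its granule Rab genes, Rab44, Rab3d and Rab37 were lower in mrWNT2, and the interval of Rab27a included a ratio of 1 with TMM scaling. Rab44 (ENSMUSG00000064147, chromosome 17, 29114145 to 29148980) had 7597 counts in control, more than any other member, and 5238 in mrWNT2. It was 1.38-fold lower (1.33 to 1.43). Rab3d (ENSMUSG00000019066, chromosome 9, 21907491 to 21918192), of secretory granules, had 2718 and 1933 counts, or 49.0 and 35.8 FPKM. By TMM-scaled counts it was 1.34-fold lower (1.26 to 1.42). Rab37, also found on secretory granules, had 483 and 368 counts and was 1.25-fold lower (1.09 to 1.43). Rab27a, which drives the docking of granules in neutrophils, had 2816 and 2575 counts and a ratio of 0.96 (0.91 to 1.01), and its interval lay below 1 with the DESeq2 size factors. Its relative Rab27b had 97 and 111 counts, with an interval that included 1 (0.91 to 1.60), and Rab3a 39 and 35.

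Among the Rab genes of constitutive exocytosis, Rab10 (ENSMUSG00000020671, chromosome 12, 3247428 to 3309969) was higher. It had 942 and 1140 counts, or 20.3 and 25.2 FPKM. The ratio of its TMM-scaled counts was 1.27 (1.17 to 1.39). RAB10 carries GLUT4 and TLR4 to the cell surface and is a substrate of LRRK2. Its relatives Rab8a, with 1939 and 1903 counts, and Rab8b, with 2995 and 2724, had ratios of 1.03 and 0.96 and intervals that included 1. Rab13, of epithelial junctions, had 23 and 29 counts. Of the remaining genes, Rab28, of cilia, had 498 and 422 counts, Rab40c, an adaptor of ubiquitin ligases, 207 and 185, and Rab23, an inhibitor of hedgehog signalling, 45 and 54. Their intervals included 1.

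**Figure D3:**
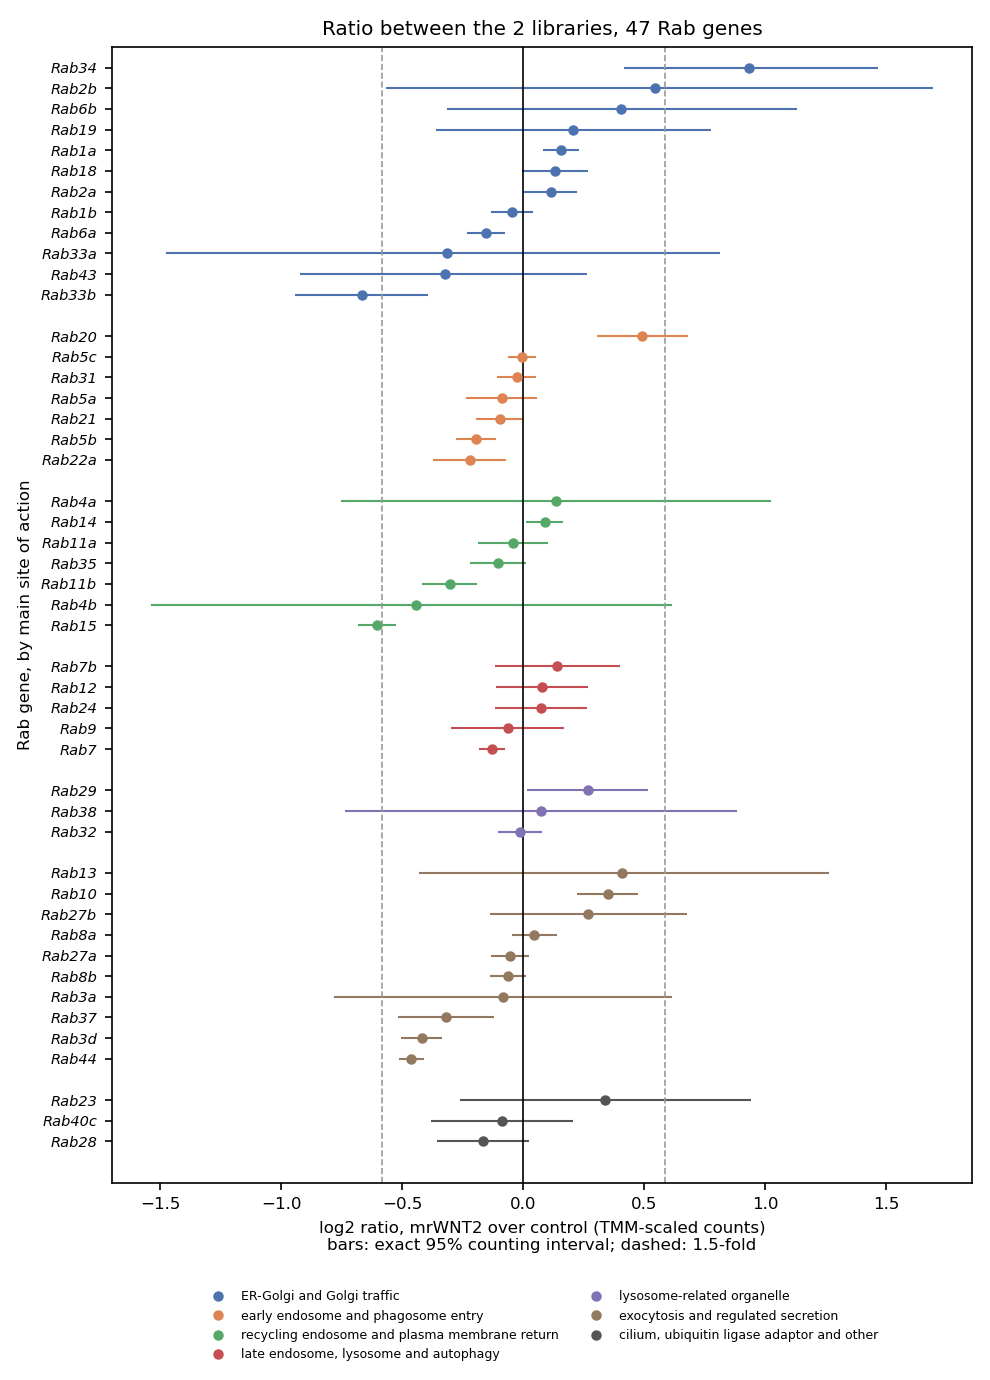
Log2 ratio of mrWNT2 over control for each of the 47 expressed Rab genes, grouped by main site of action, with exact 95% counting intervals as bars and 1.5-fold as dashed lines. Rab34 lies highest at 0.93 and Rab33b lowest at -0.67, and genes with few counts such as Rab2b, Rab4b and Rab33a have the widest bars.

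Granulocyte genes were measured beside the granule Rab genes. Over all the protein-coding genes, 7.28% were at least 1.5-fold higher and 5.15% lower. Their intervals lay above a ratio of 1 for 22.5% and below it for 19.2%. The neutrophil genes below had a median of 18182 counts over both libraries, against 740 for all, which narrows their intervals. All 11 genes of a neutrophil granule list were measured, 3 were at least 1.5-fold lower (Mmp9, Ltf and Cd177), 8 had an interval below a ratio of 1 and 3 above it (Lcn2, Ctsg and Prtn3), and their summed level was 52448 CPM in control and 43799 in mrWNT2. The 9 genes of an eosinophil list summed to 1610 CPM in control and 1611 in mrWNT2, with 3 intervals above 1 and 3 below. Of 11 mast cell and basophil genes 7 were measured. The sum of the list was 347 and 333 CPM, the median log2 ratio of the 7 was -0.02, and Kit was 2.15-fold lower while Hdc, which makes histamine, was 1.21-fold higher, and the mast cell protease genes Mcpt4 and Tpsab1 had 0 counts in both. All 12 genes of a macrophage list were measured, with 3 higher and 7 lower by 1.5-fold or more, and a sum of 2406 and 2283 CPM. The part of these cell types in the Rab differences was not tested, and in a bulk library fewer cells of a type and less RNA per cell cannot be told apart.

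The summed Rab transcripts made up 0.479% of the control counts (0.475 to 0.483) and 0.448% of the mrWNT2 counts (0.445 to 0.452). On the TMM scale this was 4828 and 4450 CPM, a difference of -378 CPM. Rab44 alone made up 41.3% of it, at 568 and 412 CPM, and Rab44, Rab15 and Rab3d together 77.9%. Without these 3 genes, chosen after their values were seen, the sums were 3802 and 3719 CPM. Rab1a (215 and 239 CPM) and Rab10 (70.4 and 89.6 CPM) had the largest gains.

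Some close relatives can stand in for each other. The balance within 15 pairs of related genes was compared as the share of the pair's counts, which no scaling affects. Not all the pairs are close, Rab7b being a distant relative of Rab7. The pairs were drawn up after the counts had been seen. In 4 pairs the intervals of the shares did not overlap between the libraries. No such count was made for pairs of other genes, so nothing particular to Rab pairs is read from it. Rab1a took 57.0% (55.6 to 58.4) of the Rab1a and Rab1b counts in control and 60.4% (59.0 to 61.7) in mrWNT2. Rab11a took 36.2% (34.2 to 38.2) of the RAB11 pair in control and 40.5% (38.3 to 42.7) in mrWNT2. Rab10 took 32.7% (31.0 to 34.4) and 37.5% (35.7 to 39.2) of the counts it shared with Rab8a. Rab5b took 34.8% (33.7 to 35.9) and 31.9% (30.8 to 33.0) of those with Rab5c. By counts, the leading gene changed in none of the 15 pairs, though the Rab4a and Rab4b pair was too sparse to name a leader. The interval of the Rab4a share ran from 37.7% to 68.8% in control and from 46.0% to 78.2% in mrWNT2. Counts rise with gene length, and by FPKM the order was the reverse for the RAB1 and RAB11 pairs. There Rab1b stood above Rab1a, and Rab11a above Rab11b, in both libraries. In 6 pairs the leading gene held over 95% of the counts in both libraries. These were Rab2a, Rab3d, Rab6a, Rab7, Rab27a and Rab32, over Rab2b, Rab3a, Rab6b, Rab7b, Rab27b and Rab38.

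**Figure D4:**
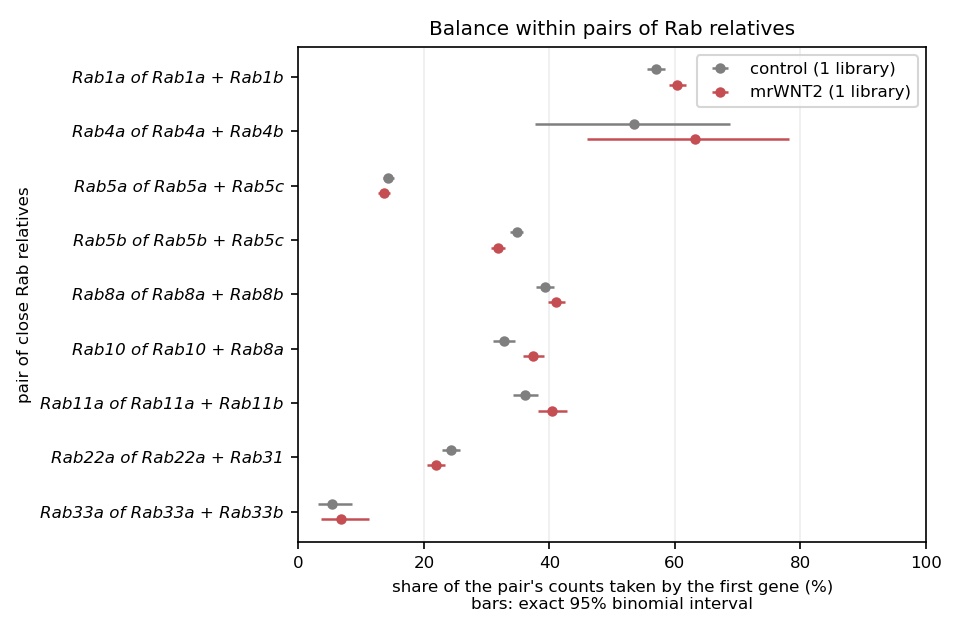
Share of a pair's counts (%) taken by the first gene named, in the control (grey) and mrWNT2 (red) libraries, with exact 95% binomial intervals, for the 9 pairs where that share was under 90% in control. The bars of Rab1a, Rab5b, Rab10 and Rab11a do not overlap between the libraries.

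The counts of some members can be shared with copies or overlapping genes, and the sources used here do not say if counting used the strand. The processed pseudogene Rab7-ps1 had 251 and 205 counts, and Rab11b-ps2 had 132 and 130, so the split of reads between Rab7, Rab11b and these copies is uncertain. Rab10os, on the other strand at the 3′ end of Rab10, had 166 and 130 counts and shares 4.07% of the Rab10 exon bases. In the GENCODE M21 annotation 17 of the 47 expressed genes share exon bases with another gene, 9 of them over at least 5% of their own. Among these were Rab43 (75.4%, with Gm45140), Rab4b (65.0%, with Gm21983), Rab6a (19.0%, with Mrpl48) and Rab33b (18.7%, with Gm38160, at 6 counts in control and 1 in mrWNT2). Rab2b was another (59.3%, with Gm43766, at 3 counts in control and 2 in mrWNT2). It also shares 4.68% with Tox4, at 1164 and 1133 counts, so the few counts of Rab2b are uncertain. Members that neighbour each other were few: Rab7b and Rab29 lie 152 kb apart on chromosome 1, Rab43 and Rab7 187 kb apart on chromosome 6, and Rab31 and Rab12 722 kb apart on chromosome 17.

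The genes that act on Rab proteins were followed with lists written from general knowledge, beside the 7.28% of all the protein-coding genes that were higher and the 5.15% that were lower by 1.5-fold or more. The counts below are few, and nothing particular to a list is read from them. Of 51 GEF genes, TRAPP complex subunits included, 49 had at least 26 counts, 0 were higher and 2 lower by 1.5-fold or more, and the median log2 ratio was -0.06. Rab3il1, a GEF for RAB8 and RAB3 proteins, had 286 and 126 counts (2.16-fold lower, 1.74 to 2.68). Dennd1c, a GEF of the DENN family, had 2220 and 1368 (1.54-fold lower, 1.44 to 1.65). Of 39 GAP genes 38 were measured, with a median of -0.03, 2 at least 1.5-fold higher and 1 lower. These were Tbc1d9 (156 and 342 counts, 2.31-fold higher, 1.90 to 2.80), Tbc1d19 (30 and 58, 2.03-fold higher, 1.29 to 3.27) and Tbc1d30 (23 and 7, 3.12-fold lower, 1.30 to 8.62).

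All 9 genes of prenylation and membrane extraction were measured, and 1 was at least 1.5-fold lower, 0 higher (median -0.05). That gene was Fdps, which makes the farnesyl diphosphate from which the lipid anchor is built, with 693 and 417 counts (1.58-fold lower, 1.40 to 1.79). Of 66 effector genes 57 were measured, and 4 were at least 1.5-fold higher and 0 lower (median 0.00), beside 7.28% and 5.15% of all the protein-coding genes. Mlph, which encodes melanophilin, the link between RAB27A and the motor myosin Va, had 4 counts in control against 127 in mrWNT2, a ratio of 33.4 (12.7 to 124). The others were Rab11fip3, an effector of RAB11 (54 and 85 counts, 1.66-fold, 1.16 to 2.37), Rilpl1 (16 and 28) and Sytl3 (11 and 17), Rilpl1 and Sytl3 with intervals that included 1. Among other genes for partners of RAB27A in the list, picked out after their values had been seen, some were lower and others had wide intervals that included 1. Myo5a, for myosin Va, was 1.34-fold lower (1.28 to 1.39), Unc13d, for the granule priming factor MUNC13-4, 1.30-fold (1.21 to 1.39), and Sytl1 1.32-fold (1.10 to 1.58). Sytl3 had a ratio of 1.63 (0.72 to 3.84), Rph3al, with 23 and 29 counts, 1.33 (0.74 to 2.40), and Sytl4, with 22 and 17, 0.81 (0.41 to 1.60). Lrrk2, whose kinase phosphorylates several Rab proteins, was 1.40-fold lower (1.31 to 1.49), from 2362 and 1609 counts.

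The Arf, Arl and Sar genes, small GTPases of vesicle budding and membrane traffic, served for comparison, as a description without a test. Of 25 measured, 1 was at least 1.5-fold higher and 1 lower, beside 7.28% and 5.15% of all the protein-coding genes. These were Arl5c (19 and 133 counts, 7.36-fold higher) and Arl4c (509 and 194 counts, 2.49-fold lower). Nothing particular to the list is read from so few genes. The median log2 ratio of the 25 genes was 0.04, and that of the Rab genes was -0.04.

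The remaining 12 Rab genes had under 26 counts over both libraries and are listed as not expressed. Rab25, the epithelial relative of Rab11a, had 10 counts in control and 4 in mrWNT2, and Rab36 3 and 7. Rab17 had 3 and 2, Rab3b 2 and 2, and Rab40b 1 and 1. Rab39 had 5 counts in control and 0 in mrWNT2, Rab30 3 and 0, Rab42 0 and 4, and Rab26 0 and 1. Rab3c, Rab9b and Rab39b had 0 in both. A count of 0 allows up to 3 counts, which is 0.224 CPM in control and 0.236 CPM in mrWNT2. Ratios of these genes are not given. Taking in those with at least 1 count in each library left 7 intervals above a ratio of 1 and 11 below it, as with the minimum of 26. Nearest to the minimum on the expressed side were Rab33a, with 30 counts in all, and Rab2b, with 31, and on the other side Rab25, with 14, and Rab36, with 10.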

How the data were processed

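Total RNA from the 2 cultures was extracted with TRIzol and made into NEBNext Ultra libraries, per the labels' protocols. Listed tools are HISAT2 2.0.5, fastp, DESeq2 1.20.0, CASAVA 1.8 and featureCounts 1.5.0-p3, with GRCm38 as the build, per the submitters' processing notes. The authors deposited raw counts per gene and FPKM, each with 1 column a library, and all value columns were used. From the values, the deposited FPKM follow from the counts, the listed gene length and 1 library size for each column. All 59 Rab genes were found in GENCODE M21, 57 with the same start and end.

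Counts were scaled with TMM factors from edgeR 4.0.16 (R 4.3.3) to CPM without a pseudocount. Ratios have exact 95% Clopper-Pearson intervals (scipy 1.17.1). Genes with at least 26 counts over both libraries were described and those at least 1.5-fold apart counted. No test was possible with 1 library a group. Reads carry no molecular identifiers. The interval method was run on simulated counts that held counting error only, so the run says nothing about spread between cultures. Members, lists and sites of action were chosen with earlier results of these data known. Full values were set for members past 1.5-fold, the 6 most abundant and those nearest the minimum, and for up to 4 genes past 1.5-fold in each direction of a list; others were named as examples after their values were seen. Alternatives were library totals, DESeq2 1.42.0 size factors, the FPKM ratio, a pseudocount of 0.5 CPM, and other count minimums. One further gene list is not reported here.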

Additional observations from a re-analysis of the deposited data

How the results depend on the processing

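The log2 ratio of each Rab gene stayed inside its counting interval with library totals, DESeq2 size factors, the FPKM ratio and the pseudocount. The FPKM ratio equalled the ratio with DESeq2 size factors, so it was not a separate check. A change of scaling shifts the log2 ratios of all genes by the same small amount, so it says little about any single gene. Over the 3 scalings 45 of 47 kept their sign, the exceptions being Rab5c and Rab32 with library totals. With library totals, 1 Rab gene instead of 2 was at least 1.5-fold lower, Rab15 being just short. With the DESeq2 size factors, 4 instead of 7 intervals lay above a ratio of 1 (Rab2a, Rab14 and Rab29 no longer did), and 15 instead of 11 below it (Rab8b, Rab27a, Rab28 and Rab35 were added). All 4 and 10 of the 11 held under each of the 3 scalings. A count minimum of 10, or of 1 in each library, raised the genes at least 1.5-fold higher from 1 to 2, by adding Rab36, and those lower from 2 to 3, by adding Rab25. The median log2 ratio ran from -0.08 with the DESeq2 size factors to -0.02 with library totals. It was 0.07 below that of all the protein-coding genes in both, a gap that a change of scaling cannot alter. No paired analysis was possible because each group had 1 library. Members with under 100 counts in all had intervals that all included 1.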

Other observations

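Genes outside the name rule but related to the family differed little as well. Rabl6, a Rab-like GTPase gene, had 744 control and 802 mrWNT2 counts, a ratio of 1.13 with an exact counting interval of 1.02 to 1.25. Cracr2a, which like Rab44 encodes a large Rab protein with EF hands, had 692 and 712 counts (ratio 1.08, 0.97 to 1.2), while Rasef, of the same build, had 0 in both. The intervals of Rabl3 (127 and 146 counts), Ift27, the Rab-like subunit of the intraflagellar transport complex (87 and 99), and Rabl2 (35 and 34) included 1.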
